A study of Mus musculus with 79 samples.

Results

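The genes that make and package pulmonary surfactant were followed in whole lung RNA of mice that breathed cigarette smoke or room air. The set was named by gene symbol and holds 10 genes: the surfactant proteins Sftpa1, Sftpb, Sftpc and Sftpd, the lipid transporter Abca3, the lamellar body protein Lamp3, the phosphate transporter Slc34a2, the acyltransferase Lpcat1, the protease Napsa and the transcription factor Nkx2-1. Each gene was read from the row of the expression table with the highest mean. Of the 31350 rows, 9 held one of these genes, and Nkx2-1 was not analysed here.

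Surfactant is a film of phospholipid and protein that lowers surface tension in the alveolus, and alveolar type 2 cells are its source. SFTPB and SFTPC are small hydrophobic proteins that spread the lipid, whereas SFTPA1 and SFTPD are collectins, soluble lectins of innate defense that are also made by airway club cells. Phosphatidylcholine is remodeled by LPCAT1, carried by ABCA3 into lamellar bodies (the storage organelles of the type 2 cell) and secreted with SFTPB and SFTPC after their precursors are cut, in part by NAPSA. NKX2-1 is the transcription factor on which most of these genes depend.

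The 79 mice were C57BL/6J wild types (WT, n = 40) and littermates that carry the Scnn1b transgene (βENaC, n = 39), aged 5 to 7 weeks. The transgene overexpresses the β subunit of the epithelial sodium channel in airway epithelium, which depletes airway surface liquid and obstructs airways with mucus. Smoke came from 6 reference 3R4F cigarettes a day for 1 day (20 smoke and 20 sham mice) or for 5 days (19 smoke and 20 sham mice), sham mice sat in the same chamber with room air, and the right lung was taken 4 hours after the last exposure. Genotype, exposure, sex and duration define 16 groups of 4 to 6 mice, with 1 Affymetrix Mouse Gene 2.1 array per mouse.

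The labels held up against their check genes. Every βENaC mouse had more Scnn1b (lowest 11.52, log2 intensity) than every WT mouse (highest 9.47), and every smoke-exposed mouse had more Cyp1a1, an enzyme induced by smoke constituents, than every sham mouse (lowest 9.96 against highest 8.98). The source entry of 13 WT smoke-exposed mice names the other genotype, 4 of them at 1 day and 9 at 5 days. Title, genotype entry and Scnn1b level place these mice among WT, where they were kept. Neither gene is an independent check for every mouse, because the authors' own script notes that a mouse was relabeled by its Scnn1b level, and an array taken as mislabeled for smoke was removed on plasma cotinine and gene expression before deposit. The arrays correlated with each other at r of 0.965 or higher, and their median log2 intensities lay between 4.44 and 4.55. The 3 arrays least like their own group, with a mean r of 0.981 to 0.983, were a βENaC smoke-exposed female and a WT smoke-exposed female at 5 days and a βENaC sham male at 1 day.

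All values below are log2 intensities as deposited by the authors, and levels of different genes are not compared because each probe set has its own brightness. A difference of 0.379 on this scale is 1.3-fold. A gene passed when its Benjamini-Hochberg adjusted p from limma, fitted over all 31350 rows, was below 0.05.

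The promoters of 7 of the 10 genes were found in the RefSeq table (build GRCm38.p6). The 250 bases before the transcription start are shown for Abca3, Lamp3 and Lpcat1, the genes that passed for smoke at 5 days, and for Sftpb, which did not. Capitals mark CAAG, the core of the NKX2-1 binding site, and TGTTTAC, a binding site of FOXA factors, each searched on both strands.
Abca3, chr17:24351773-24352022, plus strand: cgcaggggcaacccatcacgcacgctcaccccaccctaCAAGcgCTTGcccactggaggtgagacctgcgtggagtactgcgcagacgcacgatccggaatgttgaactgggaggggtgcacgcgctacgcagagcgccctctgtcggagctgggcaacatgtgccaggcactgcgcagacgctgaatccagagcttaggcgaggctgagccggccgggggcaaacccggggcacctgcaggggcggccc
Lamp3, chr16:19706366-19706615, minus strand: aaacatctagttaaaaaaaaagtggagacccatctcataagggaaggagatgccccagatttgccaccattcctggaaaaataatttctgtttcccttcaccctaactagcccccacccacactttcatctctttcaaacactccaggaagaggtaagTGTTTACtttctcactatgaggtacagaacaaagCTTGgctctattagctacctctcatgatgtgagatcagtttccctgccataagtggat
Lpcat1, chr13:73466981-73467230, plus strand: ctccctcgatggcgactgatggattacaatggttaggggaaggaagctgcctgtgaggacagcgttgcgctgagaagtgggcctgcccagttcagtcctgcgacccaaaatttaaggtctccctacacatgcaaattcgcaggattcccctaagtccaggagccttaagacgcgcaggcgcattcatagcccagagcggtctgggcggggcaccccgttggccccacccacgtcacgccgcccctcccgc
Sftpb, chr6:72304360-72304609, plus strand: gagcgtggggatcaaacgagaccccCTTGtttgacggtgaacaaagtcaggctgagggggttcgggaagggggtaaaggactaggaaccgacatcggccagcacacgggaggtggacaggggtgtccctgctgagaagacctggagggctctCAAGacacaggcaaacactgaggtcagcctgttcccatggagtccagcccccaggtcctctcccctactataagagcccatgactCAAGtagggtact
CAAG occurred 2 times in the Abca3 window, 1 time in the Lamp3 window, 3 times in the Sftpb window and 0 times in the Lpcat1 window. It is a common tetramer, present in 86.6% of 32851 promoter windows of the same length. TGTTTAC occurred in the Lamp3 window alone among the 7 and in 3.2% of all windows, and it did not overlap a CAAG. TTGCNNAA, a motif of C/EBP factors searched in the same way, occurred in the Slc34a2 window alone among the 7 and in 9.6% of all windows. The share of G and C was 67.6% in the Abca3 window, 60.8% in Lpcat1, 58.4% in Sftpb and 42.4% in Lamp3, against a median of 52.4% over all windows.

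The first comparison asked whether smoke changed these genes. After 5 days of smoke 3 of the 9 genes fell, namely Abca3, Lamp3 and Lpcat1. The 4 surfactant proteins, Slc34a2 and Napsa did not pass. Among all rows 3.37% passed as lower and 6.53% in either direction at 5 days. The median coefficient of the 9 genes was -0.02, and that of all rows was -0.00.

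Abca3, the lamellar body lipid pump, ranged from 10.31 to 10.61 (median 10.43) in the 19 smoke-exposed mice and from 10.36 to 10.76 (median 10.59) in the 20 sham mice at 5 days. It fell by 0.15 (SE 0.03), a change of -9.96% (95% confidence interval of the log2 difference -0.21 to -0.10), with an adjusted p of 0.000232 in limma. All 19 smoke-exposed mice lay below the sham mean of their genotype and sex, although the ranges of the arms overlapped. In WT males the 4 smoke-exposed mice (10.31, 10.33, 10.42 and 10.43) all lay below the 5 sham mice (10.45, 10.53, 10.56, 10.59 and 10.70). By genotype and sex the largest fall was that of these WT males (-0.19), followed by βENaC females (-0.15), βENaC males (-0.14) and WT females (-0.13).

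Lamp3, a lysosome-associated membrane protein found on lamellar bodies, ranged from 11.12 to 11.60 (median 11.47) with smoke and from 11.40 to 11.77 (median 11.56) without at 5 days. It fell by 0.15 (SE 0.03), a change of -9.85%, with an adjusted p of 0.000681 in limma, and 17 of 19 smoke-exposed mice were below their sham mean. In βENaC females the 5 smoke-exposed mice (11.35, 11.37, 11.46, 11.52 and 11.53) were separate from the 4 sham mice (11.67, 11.68, 11.69 and 11.70). The within-group differences were -0.24 there, -0.16 in WT females, -0.15 in βENaC males and -0.05 in WT males.

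Lpcat1, which makes the saturated phosphatidylcholine of surfactant, had a smaller difference. It ranged from 10.49 to 10.91 (median 10.67) with smoke and from 10.66 to 10.97 (median 10.74) without, and fell by 0.08 (SE 0.03), a change of -5.68%, with an adjusted p of 0.0337 in limma. It was lower in all 4 combinations of genotype and sex, by -0.11 in both female groups, -0.08 in βENaC males and -0.04 in WT males, and in 15 of 19 mice. This call was lost when any 1 of 7 mice was left out (adjusted p up to 0.0594) and when arrays were centered on their medians (adjusted p = 0.0735). Without the 13 mice whose labels name 2 genotypes, which leaves no smoke-exposed WT mouse at 5 days, Lamp3 passed (-0.19, adjusted p = 0.00246 in limma), whereas Abca3 (-0.15, adjusted p = 0.0635) and Lpcat1 (-0.09, adjusted p = 0.249) did not.

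The secreted proteins, Slc34a2 and Napsa did not pass, and their differences at 5 days were small. Sftpc ranged from 12.56 to 12.74 with smoke and from 12.60 to 12.77 without, a difference of -0.01 with a 95% confidence interval from -0.05 to 0.03. The interval was -0.01 to 0.08 for Sftpb, -0.06 to 0.06 for Sftpa1 and -0.06 to 0.16 for Sftpd. Those of Slc34a2, the sodium-dependent phosphate transporter of the type 2 cell, and Napsa were -0.07 to 0.02 and -0.11 to 0.04. All 6 intervals exclude a 1.3-fold change of intensity in either direction. For the brightest of these genes, Sftpc, Sftpb, Slc34a2 and Sftpa1, compressed signal can make an intensity change smaller than the RNA change.

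After 1 day of smoke, 1 of the 9 genes fell, where 4.43% of all rows passed as lower, 5.03% as higher and 9.45% in either direction. This was Lamp3, which ranged from 11.26 to 11.65 (median 11.46) with smoke and from 11.44 to 11.76 (median 11.56) without. It fell by 0.09 (SE 0.03), a change of -6.12%, with an adjusted p of 0.0221 in limma, and 18 of 20 mice lay below their sham mean. Without the 4 mice whose labels name 2 genotypes the adjusted p was 0.0562. Abca3 (coefficient -0.06, adjusted p = 0.226 in limma) and Lpcat1 (-0.05, adjusted p = 0.311 in limma) did not pass, and the other 6 genes had coefficients from 0.02 to 0.10. The lowest Abca3 value of the study, 10.12, was that of a WT female after 1 day of smoke, whose 4 group mates had 10.34, 10.34, 10.39 and 10.43.

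**Figure D1:**
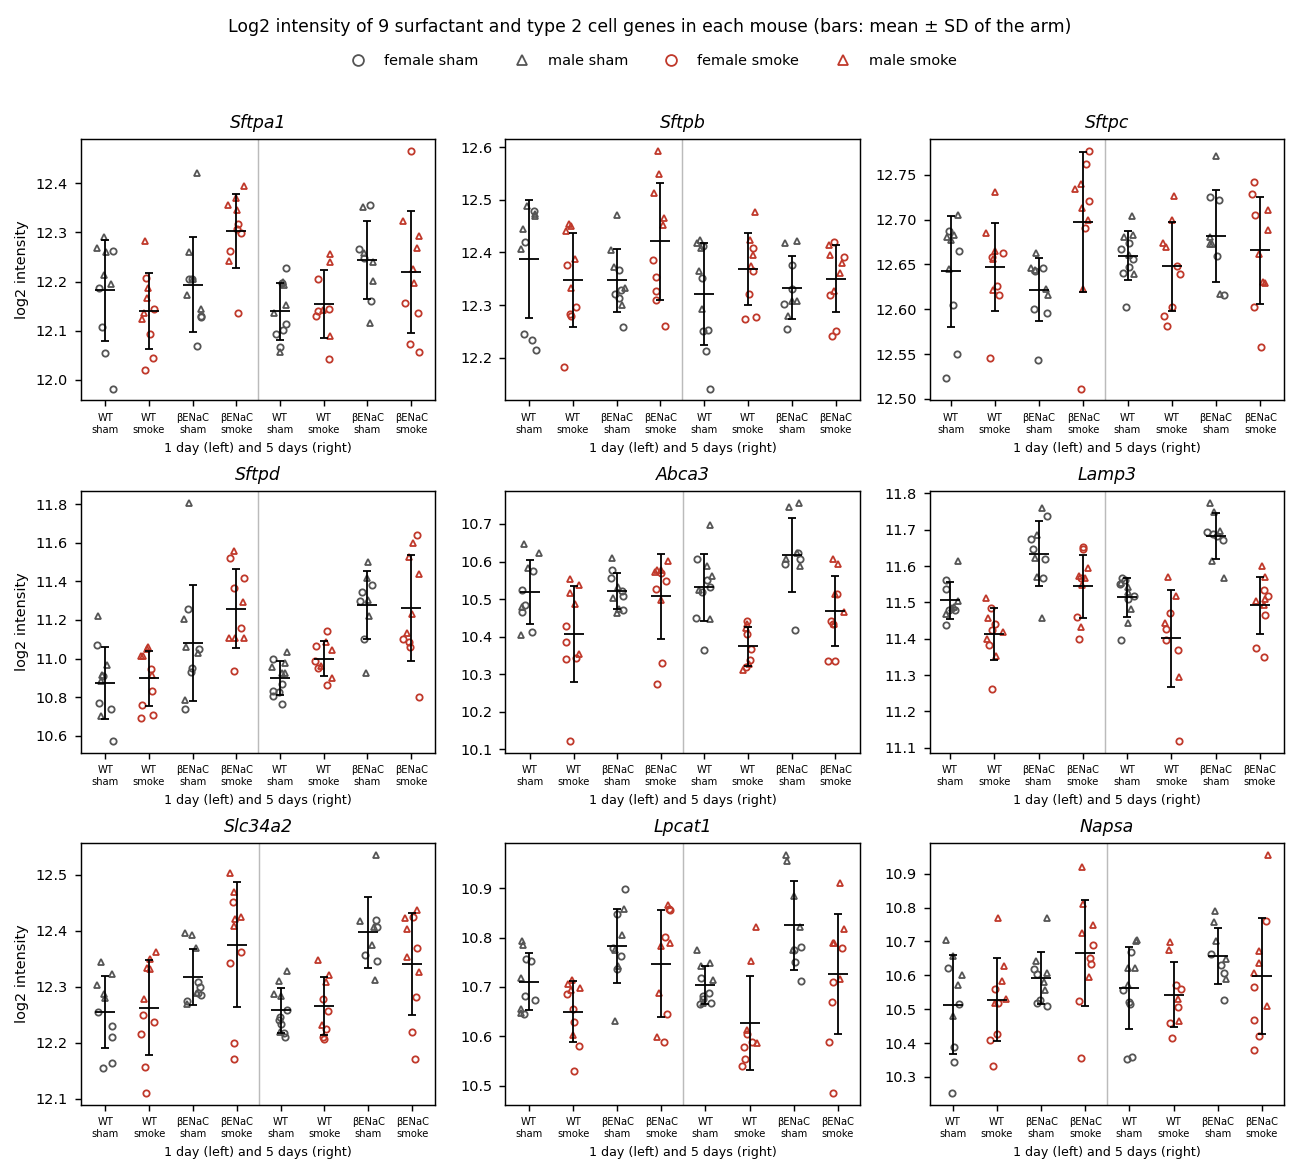
Log2 intensity (y axis) of each of the 9 genes in 79 mice, by genotype and exposure at 1 day (left of the gray line) and 5 days (right), with circles for females, triangles for males, gray for sham and red for smoke. Black bars are the mean and SD of each arm of 9 to 11 mice, and the y axes start near the lowest value of each gene. Abca3 and Lamp3 sit lower in the smoke-exposed mice of both genotypes at 5 days, and Sftpd sits higher in βENaC mice.

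The effect of smoke was not shown to differ between the durations. The exposure by duration term, fitted without genotype and sex, was -0.08 for Abca3 (adjusted p = 0.514 in limma), -0.05 for Lamp3 (0.788) and -0.03 for Lpcat1 (0.885). None of the 9 genes passed, where 0.612% of all rows did. With genotype and sex added to that fit, none of the 9 passed either. Nor was the effect of smoke shown to differ by genotype or sex in any of the 9 genes at either duration, and the joint F-test of both terms passed for 0.00638% of all rows at 1 day and for 0% at 5 days. The smallest p of such a term among the 9 genes was that of Sftpa1 at 1 day, with a difference between the genotypes in their response to smoke of 0.15 (unadjusted p = 0.00744, adjusted p = 0.642 in limma). The corresponding term of Sftpb was 0.11 (unadjusted p = 0.0266, adjusted p = 0.684 in limma). At this size of experiment the 95% confidence intervals of these terms were wide: that of Lamp3 by genotype at 5 days ran from -0.20 to 0.03.

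The second comparison asked whether the βENaC transgene changed the same genes. The direction was upward: 4 of the 9 genes were higher in βENaC than in WT mice at 1 day and 5 at 5 days, and none was lower. Among all rows 3.58% passed as higher at 1 day (2.29% as lower, 5.87% in either direction) and 4.85% at 5 days (5.33% as lower, 10.2% in either direction). Sftpd, Lamp3 and Slc34a2 passed at both durations. The median coefficient of the 9 genes was 0.09 at 1 day and 0.08 at 5 days, and that of all rows was 0.00 and -0.01.

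Sftpd, the collectin that binds microbial sugars and takes part in surfactant turnover, had the largest difference. At 1 day it ranged from 10.74 to 11.81 (median 11.11) in 20 βENaC mice and from 10.58 to 11.22 (median 10.91) in 20 WT mice. At 5 days it ranged from 10.80 to 11.64 (median 11.30) in 19 βENaC mice and from 10.76 to 11.14 (median 10.95) in 20 WT mice. Most βENaC mice thus lay above the WT range at 5 days, but the arms overlapped at both durations. The difference was 0.28 (SE 0.07) at 1 day, or 21.6% more, and 0.31 (SE 0.05) at 5 days, or 24.2% more, with adjusted p of 0.00411 and 8.6e-05 in limma. It was present in all 4 combinations of exposure and sex at each duration, with a range of 0.17 to 0.49 at 1 day and 0.14 to 0.43 at 5 days. The spread was also wider in βENaC mice, with an SD of 0.23 against 0.10 at 5 days.

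Lamp3 was higher in βENaC mice by 0.13 at both durations (SE 0.03 each), with adjusted p of 0.0013 at 1 day and 0.00298 at 5 days in limma, and 18 of 20 and 18 of 19 βENaC mice lay above their WT mean. At 5 days its median was 11.57 in βENaC mice (11.35 to 11.77) and 11.50 in WT mice (11.12 to 11.57). Slc34a2 was higher by 0.09 (SE 0.02, adjusted p = 0.0108 in limma) at 1 day and by 0.10 (SE 0.02, adjusted p = 0.0014 in limma) at 5 days. Its 5-day values ran from 12.17 to 12.54 (median 12.38) in βENaC mice and from 12.21 to 12.35 (median 12.25) in WT mice. Lamp3 at both durations, and Abca3 and Lpcat1 at 5 days, passed in both comparisons, lower with smoke and higher in βENaC mice. Without the 13 mice whose labels name 2 genotypes, Sftpd, Lamp3 and Slc34a2 passed at both durations (Sftpd adjusted p = 0.0338 at 1 day and 0.00665 at 5 days in limma).

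Lpcat1 was higher in βENaC mice by 0.10 at 5 days (adjusted p = 0.00597 in limma) and by 0.09 at 1 day (adjusted p = 0.0545 in limma), which did not pass. Without the 13 mice whose labels name 2 genotypes, the 5-day call of Lpcat1 was lost (0.11, adjusted p = 0.0786), as were those of Abca3 (0.08, adjusted p = 0.323) and, at 1 day, Napsa (0.10, adjusted p = 0.116). Abca3 passed at 5 days with 0.08 (adjusted p = 0.0409 in limma), but not when any 1 of 16 mice was left out (adjusted p up to 0.0698), under array median centering (0.055) or quantile normalization (0.0869), or without the 3 arrays least like their group (0.0547). Napsa, the aspartic protease that trims the SFTPB precursor, passed at 1 day with 0.11 (adjusted p = 0.0473 in limma), but not when any 1 of 26 mice was left out (adjusted p up to 0.0833), under array median centering (0.0567) or array weights (0.0525), or without the same 3 arrays (0.0723). Sftpa1 had coefficients of 0.09 and 0.08 with adjusted p of 0.0639 and 0.068 in limma. Other planned settings gained calls here: Lpcat1 at 1 day passed in 6 of them (adjusted p from 0.0217 to 0.0469), and Sftpa1 in 5 at 1 day and in 4 at 5 days (adjusted p from 0.0227 to 0.0497).

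The hydrophobic proteins differed least by genotype. For Sftpb the coefficient was 0.02 at 1 day (95% confidence interval -0.04 to 0.07) and -0.01 at 5 days (-0.06 to 0.04). For Sftpc it was 0.02 at both durations, with intervals from -0.03 to 0.06 and from -0.02 to 0.06. The genotype by duration term did not pass for any of the 9 genes or for any other row (0%), with 0.03 for Sftpd (adjusted p = 0.974 in limma).

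Sex was the third term of the model. At 1 day males had more Sftpb, Napsa, Slc34a2 and Sftpa1 than females, 4 of 9 genes, where 7.82% of all rows passed as higher in males and 9.89% in either direction. Markers of endothelial cells and fibroblasts were higher in males too (6 of 12 each), in lists fitted on the deposited scaling alone. Their part in this result was not tested. Sftpb ranged from 12.30 to 12.59 (median 12.45) in 20 males and from 12.18 to 12.48 (median 12.31) in 20 females, a difference of 0.13 (SE 0.03, adjusted p = 0.00068 in limma), and 19 of 20 males lay above their female mean. The differences were 0.15 for Napsa (adjusted p = 0.00252), 0.11 for Slc34a2 (adjusted p = 0.000863) and 0.09 for Sftpa1 (adjusted p = 0.0282) in limma. At 5 days 1 gene passed, Lpcat1, with 0.11 (adjusted p = 0.0222 in limma), where 0.472% of all rows passed as higher and 0.616% in either direction. That call was lost under quantile normalization (adjusted p = 0.0733), cyclic loess (adjusted p = 0.11) and without the 9 mice whose labels name 2 genotypes (adjusted p = 0.119). Sftpa1 at 1 day was lost under cyclic loess (adjusted p = 0.117) and without 4 such mice (adjusted p = 0.0867). The sex by duration term did not pass for any of the 9 genes, where 0.6% of all rows did, and the smallest p was that of Lpcat1 (0.10, unadjusted p = 0.00466, adjusted p = 0.176 in limma).

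**Figure D2:**
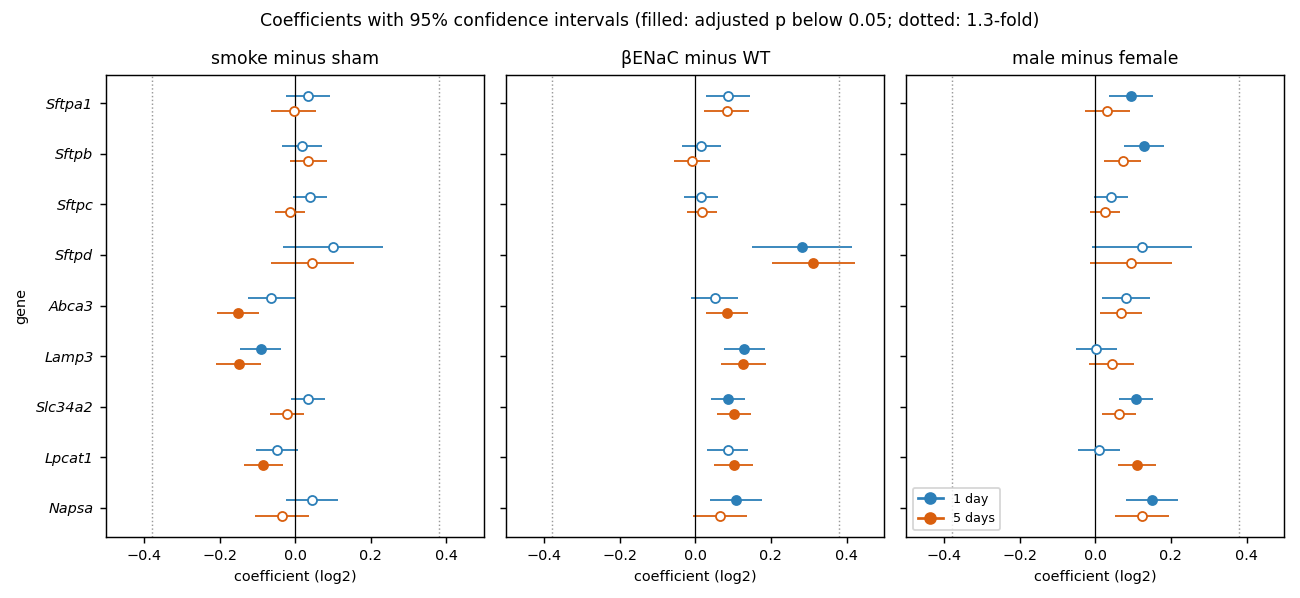
Coefficients of exposure, genotype and sex on the log2 scale (x axis) for the 9 genes (y axis), with 95% confidence intervals, at 1 day (blue) and 5 days (orange). Filled points had an adjusted p below 0.05, and dotted lines mark 1.3-fold. No point lies beyond 1.3-fold, smoke lowers Abca3, Lamp3 and Lpcat1 at 5 days, and the filled genotype and sex points all lie above 0.

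No pooled coefficient of exposure, genotype or sex reached 1.3-fold for any of the 9 genes, although the intervals of Sftpd for genotype (0.15 to 0.41 at 1 day and 0.20 to 0.42 at 5 days) include it and the Sftpd difference passed that size in 3 of the 8 combinations of exposure, sex and duration. Among all rows, 1.07% at 1 day and 1.15% at 5 days passed for smoke beyond that size. For genotype these shares were 1.54% and 2.52%, and for sex 0.836% and 0.198%. The within-group SD was 0.05 to 0.11 for 8 of the 9 genes and 0.19 for Sftpd, and its median over all rows, dim ones included, was 0.16. Sftpc, Sftpb, Slc34a2 and Sftpa1 lay 0.75, 1.05, 1.10 and 1.21 below the highest value of the table on the log2 scale. Bright probe sets can compress differences, so that small spreads and small differences of these genes are to be read with that limit. The means of the 16 groups spanned 0.10 for Sftpc and 0.60 for Sftpd.

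Beyond the 9 genes, 19 of 22 listed type 2 cell markers were measured, and they followed the genotype. At 1 day 11 of the 19 were higher in βENaC mice and at 5 days 12, and none was lower. Among all rows 3.58% and 4.85% were higher, and 2.29% and 5.33% lower. The median coefficient of the list was 0.16 and 0.20. The largest at 5 days were Il33, an alarmin cytokine (0.73, adjusted p = 0.000102), Fabp5, a fatty acid binding protein (0.69, adjusted p = 6.3e-06), the endocytic receptor Lrp2 (0.52, adjusted p = 0.000124) and Egfl6 (0.44, adjusted p = 0.000504) in limma. The same 4 genes led at 1 day, with coefficients of 0.61, 0.63, 0.35 and 0.29. Several of these genes are not made by type 2 cells alone.

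Smoke split the same list. At 5 days 4 of 19 fell, where 3.37% of all rows did, namely Acoxl, an acyl-CoA oxidase-like gene (-0.54, adjusted p = 2.3e-08 in limma), Lrp2 (-0.35, adjusted p = 0.0137 in limma), complement component Hc (-0.23, adjusted p = 0.00585 in limma) and the lung chemokine Cxcl15 (-0.22, adjusted p = 3.78e-06 in limma). Another 2 rose, Pon3 (0.21) and the cathepsin Ctsh (0.16), where 3.17% of all rows rose. These 2 are named after their values were seen to complete the count. Acoxl was the single gene of the list beyond 1.3-fold for smoke at 5 days. At 1 day 1 fell (Acoxl, -0.23) and 2 rose (Ctsh and Cebpa, 0.13 each), where 4.43% of all rows fell and 5.03% rose.

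The type 1 cell markers, which mark the flat gas-exchange cells of the alveolus, moved the other way with genotype. Of 14 measured, 5 were lower in βENaC mice at 1 day and 11 at 5 days, and none was higher. Among all rows 2.29% and 5.33% were lower, and 3.58% and 4.85% higher. The median coefficient of the list was -0.09 and -0.16. At 5 days the largest were Igfbp2 (-0.43), the sodium channel subunit Scnn1g (-0.31), Hopx (-0.29) and caveolin Cav1 (-0.22), with adjusted p from 6.51e-05 to 0.00047 in limma. Endothelial markers were lower in βENaC mice too (8 of 12 at each duration), and their part in this result was not tested. With smoke at 5 days 1 of the 14 type 1 markers was lower, Sema3e (-0.16), where 3.37% of all rows were lower. In whole lung RNA fewer cells of a type and less RNA per cell cannot be told apart.

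**Figure D3:**
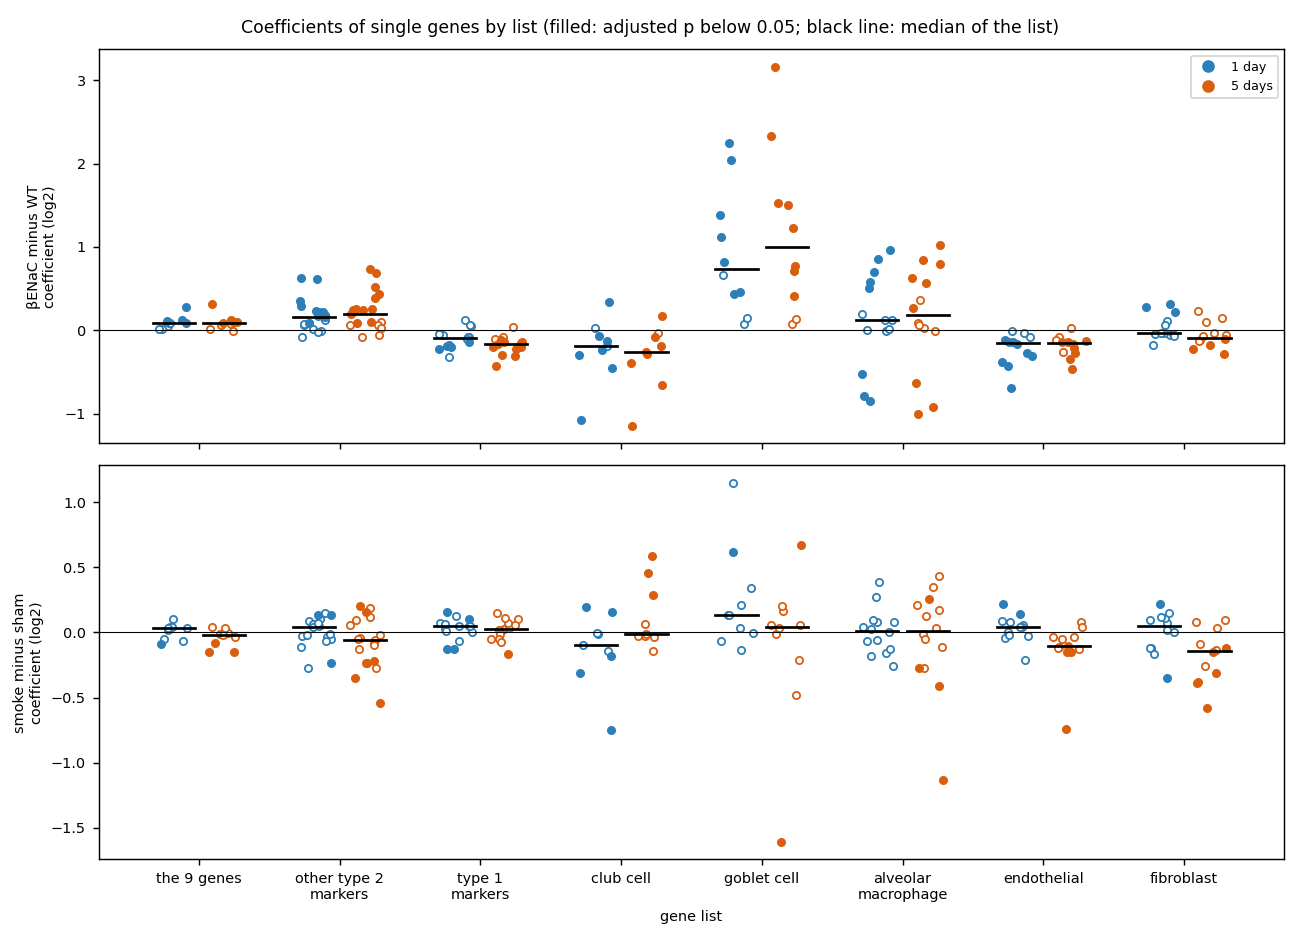
Coefficients of single genes (y axis, log2) for genotype (upper panel) and smoke (lower panel), by gene list (x axis), at 1 day (blue) and 5 days (orange). Filled points had an adjusted p below 0.05, and black lines are list medians. Other type 2 markers lie mostly above 0 and type 1 and endothelial markers below 0 for genotype, and goblet cell genes reach 3.15.

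Other genes around surfactant were read as 4 lists, which share some genes with the type 2 marker list and with each other. In phospholipid and fatty acid synthesis (22 of 24 measured), 7 genes rose and 1 fell after 5 days of smoke, where 3.17% of all rows rose. These were led by the phosphatidate phosphatases Lpin1 (0.32) and Lpin2 (0.30), the lipase Pnpla2 (0.29) and acetyl-CoA carboxylase Acaca (0.24), with adjusted p from 0.000213 to 0.0334 in limma. As a lipase, Pnpla2 breaks lipids down, so the list and its counts are not of synthesis alone. The gene that fell, named after its value was seen, was the elongase Elovl1 (-0.20), where 3.37% of all rows fell. At 1 day 3 rose and 1 fell, where 5.03% of all rows rose and 4.43% fell. With genotype 4 were higher at 1 day, where 3.58% of all rows were higher. At 5 days 4 were higher and 1 lower, where 4.85% of all rows were higher and 5.33% lower.

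In protein processing and lamellar body biogenesis and secretion (23 of 24 measured), smoke at 5 days raised 2 genes and lowered 1, where 3.17% of all rows rose and 3.37% fell, and at 1 day raised 3 and lowered 1 (5.03% and 4.43%). P2ry2, the purinergic receptor through which ATP triggers surfactant secretion, fell by 0.29 (adjusted p = 0.0193 in limma) at 5 days and by 0.31 (adjusted p = 0.00863 in limma) at 1 day. The small GTPase Rab3d rose by 0.26 (adjusted p = 0.000109 in limma) and Ctsh, which is also on the type 2 list, by 0.16. In βENaC mice P2ry2 was higher at both durations, by 0.45 each, and at 5 days Ctsb (0.42), Ctsl (0.40) and the flippase Atp11a (0.16) were higher too. In all 5 were higher and 1 lower with genotype at 1 day, where 3.58% of all rows were higher and 2.29% lower. At 5 days 5 were higher and 3 lower, where 4.85% of all rows were higher and 5.33% lower. The median genotype coefficient of this list was 0.05 at 1 day and 5.4e-05 at 5 days. Which cells these RNAs came from was not tested.

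Surfactant clearance, the uptake and breakdown of used surfactant by alveolar macrophages under GM-CSF signaling, was the list with the largest genotype difference of the 4. Of 16 measured, 8 were higher and 1 lower in βENaC mice at 1 day, and 12 were higher and 1 lower at 5 days. Among all rows 3.58% and 4.85% were higher, and 2.29% and 5.33% lower. The median coefficient of the list was 0.25 and 0.36. At 5 days the GM-CSF receptor chains Csf2rb2 and Csf2rb were higher by 1.03 and 0.68 and the scavenger receptors Msr1 and Marco by 0.91 and 0.84, with adjusted p from 1.45e-05 to 0.000525 in limma. The lower gene was the fatty acid receptor Cd36 (-0.15 at 1 day and -0.09 at 5 days), named after its value was seen. After smoke 3 rose at 1 day, where 5.03% of all rows rose. At 5 days 2 rose and 1 fell, where 3.17% of all rows rose and 3.37% fell. Those that rose were led at both durations by lipoprotein lipase Lpl (0.33 and 0.36) and the cholesterol exporter Abca1 (0.33 and 0.29).

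Of 22 transcription factors and receptors of the distal lung epithelium, 7 rose and none fell after 1 day of smoke, and 5 rose and none fell after 5 days. Among all rows 5.03% and 3.17% rose, and 4.43% and 3.37% fell. Elf3, an epithelial ETS factor, rose by 0.52 and 0.42, the receptor Erbb3 by 0.21 and 0.24, and at 5 days the thyroid hormone receptor Thrb by 0.27, with adjusted p from 7.58e-06 to 0.00067 in limma. With genotype 1 was higher and 1 lower at 1 day, where 3.58% of all rows were higher and 2.29% lower. At 5 days 2 were higher and 3 lower with genotype, where 4.85% of all rows were higher and 5.33% lower. At 1 day males had more of 11, led by Elf3 (0.43), Foxa2 (0.34), Etv5 (0.23) and Erbb3 (0.23), and less of 1. Among all rows 7.82% were higher in males and 2.07% lower at 1 day. This excess depended on scaling. Of the rows that passed, 2452 of 3101 were higher in males as deposited and 1654 of 3180 after quantile normalization. The list was not refitted under other scalings.

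Markers of several other lung cell types moved with the same comparisons, and their part in the results above was not tested. With sex at 1 day, 6 of 12 endothelial, 6 of 12 fibroblast and 5 of 14 type 1 markers were higher in males and none was lower. Over all rows, 7.82% were higher in males and 2.07% lower. After quantile normalization 52% of the passing rows were higher in males, and these lists were not refitted under it. The list means of these mice had medians of 0.14 in males and -0.11 in females for endothelial and 0.09 and -0.10 for fibroblast markers. With genotype 8 of 12 endothelial markers were lower at each duration and none was higher. Over all rows, 2.29% were lower in βENaC mice at 1 day and 5.33% at 5 days, and 3.58% and 4.85% were higher. The mean of the endothelial list per mouse, centered on its mean, had a median of -0.06 (-0.48 to 0.13) in βENaC and 0.14 (-0.17 to 0.25) in WT mice at 5 days. Goblet cell genes were higher for 7 of 10 at 1 day and 8 of 10 at 5 days, club cell genes were lower for 6 of 9 and 7 of 9 and higher for 1 of 9 at each, and alveolar macrophage genes were higher for 5 and 6 of 14 and lower for 3 of 14 at each. Fibroblast markers were higher for 3 of 12 at 1 day and lower for 4 of 12 at 5 days. Ciliated cell genes were higher for 1 and lower for 2 of 10 at 1 day, and lower for 3 of 10 at 5 days. With smoke at 5 days, 6 of 12 fibroblast and 4 of 12 endothelial markers were lower and none was higher, where 3.37% of all rows were lower and 3.17% higher. The fibroblast list mean had a median of -0.06 (-0.63 to 0.12) with smoke and 0.08 (-0.14 to 0.34) without. At 1 day of smoke ciliated cell genes were lower for 5 of 10 and club cell genes for 3 of 9, with 2 of 9 higher. At that duration 4.43% of all rows were lower and 5.03% higher. Neutrophil genes were lower for 2 of 10 at 1 day and 1 of 10 at 5 days, and B and T lymphocyte genes for 1 of 12 and 0 of 12. Heart muscle genes, which can come from pulmonary vein or carried-over tissue, were higher for 0 of 7 and 1 of 7. At 5 days 3.17% of all rows were higher. Counts of 0 or 1 in such short lists cannot be told apart from the shares of all rows. All 6 smoke-response control genes rose at each duration.

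The last question was whether the 9 genes varied together from mouse to mouse. The log2 intensities were centered on the 16 group means, so that genotype, exposure, sex and duration were removed, and Pearson's r and Spearman's rho were computed over 79 mice for the 36 pairs. All 36 correlations were positive (median 0.45, range 0.13 to 0.75). By a two-sided permutation test within groups, with p adjusted over the 36 pairs, 31 pairs passed. When arrays were first centered on their medians, 24 passed and the median r was 0.37. Pairs of other genes were not tested, so these counts do not show that such correlation is particular to the 9 genes.

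The highest pair was Sftpa1 with Sftpd, the collectins (r = 0.75, rho = 0.72, n = 79 mice, permutation p = 1e-05 for each, the smallest these permutations can give, adjusted p = 5.14e-05 and 6e-05). It was 0.68 without the 2 mice farthest from the Sftpa1 median. Sftpa1 with Slc34a2 followed (r = 0.67, rho = 0.63), then Sftpd with Napsa (r = 0.65, rho = 0.63). The genes that fell with smoke at 5 days were correlated within groups as well: Lamp3 with Lpcat1 at r = 0.60 (rho = 0.60, 0.63 without 2 mice), Abca3 with Lpcat1 at r = 0.59 (rho = 0.59, 0.56 without 2 mice) and Abca3 with Lamp3 at r = 0.41 (rho = 0.42, 0.35 without 2 mice), with adjusted permutation p of 5.14e-05, 5.14e-05 and 0.000972 for r. These pairs were not set apart from the others. Abca3 with Lamp3 lay below the median of all pairs (0.45), and Lpcat1 reached 0.57 with Slc34a2, which did not fall.

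The 5 pairs that did not pass were Sftpb with Lamp3 (r = 0.13, adjusted permutation p = 0.303), Sftpb with Sftpd (r = 0.18, adjusted permutation p = 0.159), Sftpa1 with Abca3 (r = 0.18, adjusted permutation p = 0.156), Sftpb with Abca3 (r = 0.23, adjusted permutation p = 0.0568) and Sftpc with Lamp3 (r = 0.26, adjusted permutation p = 0.0533). Of these, Sftpb with Sftpd passed by rho (0.27, adjusted permutation p = 0.0314). Sftpb correlated at 0.53 with Sftpc and at 0.50 with Sftpa1.

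**Figure D4:**
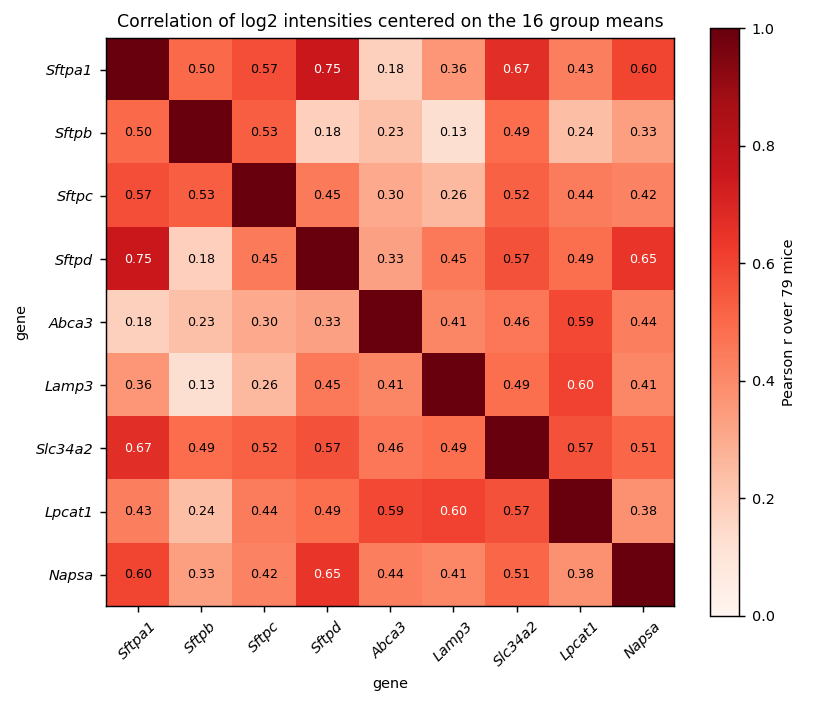
Pearson r over 79 mice for each pair of the 9 genes (both axes), with log2 intensities centered on the 16 group means. Darker cells are higher, from 0.13 for Sftpb with Lamp3 to 0.75 for Sftpa1 with Sftpd, and all cells are positive.

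Outside the set, the row most like the mean of the 9 genes over the 79 centered mice was Npc2 (r = 0.84), a lysosomal cholesterol carrier. It was followed by Renbp (0.79), Atp11a (0.78), Pld3 (0.77), P2rx4 (0.76), Colgalt1, Anpep (0.75 each) and Adam19 (0.74). These were picked as the highest of all rows with a symbol, and they share arrays with the 9 genes, so the values are a description. Npc2 was higher in βENaC mice by 0.17 at 1 day and 0.21 at 5 days (adjusted p = 0.0164 and 0.00085 in limma).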

How the data were processed

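RNA from the right lung of 79 mice was hybridized to Affymetrix Mouse Gene 2.1 arrays, 1 per mouse. The authors deposited log2 intensities after robust multi-array averaging (background correction, quantile normalization and median polish). The submitters' processing notes name Affymetrix Expression Console 1.4 and Partek 6.6, and the genome build is not given in the sources used here. Of 31350 rows, 21833 received a gene symbol, 21053 through RefSeq and 780 through the study's own annotation. No per-sample column was left unused.

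Groups came from the sample titles. Each duration was fitted over all rows with limma 3.58.1 in R 4.3.3 (genotype + exposure + sex, empirical Bayes, Benjamini-Hochberg), and separate fits held the interaction terms. The exposure by duration fit held exposure, duration and their interaction, without genotype or sex. Coefficients are smoke minus sham, βENaC minus WT and male minus female. Nothing in the labels ties replicate numbers across groups. The deviations of same-numbered mice from their group means had a mean r of 0.012 over 266 pairs, against -0.003 for different numbers. Arrays carry no read depth, so their number limits precision.

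The genes and the 16 lists were chosen with earlier results of these data known, and several lists share genes. All 9 measured genes are named, with at most 4 passing genes per list and comparison (largest coefficient first), Scnn1b and Cyp1a1 as checks, and the 8 rows most correlated with the set. Omitting the 3 arrays least like their group, and the 13 mice whose labels name 2 genotypes, was chosen after seeing the data. The fits were run on simulated data with planted effects and independent noise per row. Those data lack the correlation between genes seen here. Nkx2-1 was not analysed here.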

Additional observations from a re-analysis of the deposited data

Results flagged for a closer look

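Of the 144 combinations of gene and group, 6 (4.17%) held a mouse that stood apart from its group mates by Dixon's test, where chance gives about 1 in 20. Lamp3 had 3 of them. A WT sham male at 1 day (replicate 1) was high at 11.62 against 11.47 to 11.50 in its group mates, a βENaC smoke-exposed male at 1 day (replicate 2) was low at 11.43 against 11.55 to 11.59, and a WT sham female at 5 days (replicate 6) was low at 11.40 against 11.51 to 11.57. Abca3 was low in a βENaC sham female at 5 days (replicate 3), at 10.42 against 10.59 to 10.62. Lpcat1 was low in a WT smoke-exposed male at 1 day (replicate 1), at 10.60 against 10.69 to 10.71. Sftpa1 was high in a βENaC smoke-exposed female at 5 days (replicate 3), at 12.47 against 12.06 to 12.16, and the array of this mouse was among the 3 least like their group. All 6 mice were kept in the main model, and were left out only in the alternatives that omit mice.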

How the results depend on the processing

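The 18 calls of the 9 genes were refitted under 9 planned settings. Of 162 values, 154 kept direction and call, 8 lost the call (5 of the 18 calls) and 0 reversed. Gained calls were Lpcat1 (6 settings) and Sftpa1 (5) for genotype at 1 day, Sftpa1 (4) for genotype at 5 days, Abca3 (1) for sex at 1 day and Napsa (1) for sex at 5 days. No pooled coefficient passed beyond 1.3-fold, and without the fold threshold the counts were 1 and 3 for exposure at 1 and 5 days, 4 and 5 for genotype and 4 and 1 for sex. The shares of all rows, in the same order, were 9.45% and 6.53%, 5.87% and 10.2%, and 9.89% and 0.616%. Sex at 5 days gave 2 genes under array median centering and 0 under quantile normalization or cyclic loess. In these settings 1.04%, 0.539% and 0.542% of all rows passed. Exposure at 1 day gave 0 genes in WT mice, βENaC mice, females or males alone, and exposure at 5 days gave 1 in each, in fits of about 20 mice. Shares of all rows were not computed for these subsets, nor for the fits below that leave out mice. The remaining alternatives were chosen after seeing the data. Without the 3 arrays least like their group, sex at 5 days gave 2 genes. Without the 13 mice whose labels name 2 genotypes, exposure gave 0 genes at 1 day and 1 at 5 days, genotype at 5 days gave 3 and sex at 5 days gave 0. That omission removes all WT smoke-exposed mice at 5 days, and for the other settings the cause was not tested.

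Leaving out each mouse in turn gave 1 gene for exposure at 1 day and 2 to 3 at 5 days, 3 to 6 and 4 to 6 for genotype, and 4 and 1 to 2 for sex, the 2 arising without βENaC smoke-exposed female replicate 3 at 5 days. Beyond 1.3-fold, and for every interaction, these counts stayed at 0. With the replicate number as a block the counts of calls did not change (3 genes for exposure at 5 days and 5 for genotype at 5 days). In that setting 6.42% and 9.87% of all rows passed. The labels do not say that the numbers pair mice across groups. Mean r was 0.012 for same-number pairs and -0.003 for pairs with different numbers. Of 79 mice, 24 correlated best with their own number, and 42 of 266 same-number pairs exceeded 0.1. These values do not exclude a weak link. A second row per gene was not run, because each gene has 1 row.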
